A study of Flechtneria rotunda with 10 samples.

Results

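The genes described here are 160 of the 17148 assembled genes measured in Flechtneria rotunda, a single-celled green alga of deserts, and they share a peak at the first sign of drying. A gene was a member when its deposited expression signal averaged at least 5 in the 2 early desiccation libraries and when the lower of those values was at least 1.5 times the highest of the 8 other libraries. A limit of 200 members was set, and it was not reached. Strain SEV3VF49 was grown for 6 weeks in medium, and drops of 40 µL were left to dry on glass. The stages were hydrated drops at 0 h, early desiccation at 2.5 h with a volume loss of 25%, late desiccation at 7.5 h with a loss of 60%, dry drops at about 24 h, kept 11 h longer in the chamber once flat, and rehydrated drops 1 h after wetting. Each of the 5 stages has 2 libraries of total RNA depleted of ribosomal RNA, and all are of the 1 strain. Whether paired libraries of a stage are separate cultures is not stated in the labels, so p-values reflect only the spread seen between them, possibly a technical one.

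As a drop dries, water leaves the cells and the solutes around and inside them become more concentrated. Desert algae survive this by changes in membranes, proteins, solutes and photosynthesis, and once dry they hold little metabolism until water returns. An RNA level is set by how fast the transcript is made and how fast it is degraded, and RNA-seq sees only the balance. A gene that peaks early and falls back is the pattern of a transient response, as opposed to one that stays raised throughout drying. The files pair these assembly identifiers with no gene name or function, so members are described by their values and by their rank in the ratio that orders them. This ratio is the lower early signal plus 1 over the highest other signal plus 1.

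Library totals ran from 1696655 to 5409197 counts over the genes of the deposited table. The late libraries had counts for 16728 and 16972 genes, and the other 8 libraries for 10742 to 13774. The name of the deposited table calls its genes differentially expressed, by a choice not given in the sources used here, so shares below are shares of that table. Levels between genes are compared on the deposited signal, whose values are per length and scaled between libraries with TMM (a trimmed mean of ratios), and fold changes come from the expected counts.

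The peak was about 2.5 times the hydrated level for a typical member, and it had gone by late desiccation. The median signal of the 160 members was 7.04 and 6.75 in the hydrated libraries, 16.6 and 18.5 at early desiccation, 7.55 and 7.90 at late desiccation, 2.46 and 2.81 in the dry pair, and 3.20 and 3.24 after rehydration. The early libraries stood above all others, the hydrated and late libraries lay close together, and the dry and rehydrated libraries lay lowest. Members held 0.917% and 1.16% of the counts in the early libraries. They held 0.297% and 0.330% in hydrated, 0.450% and 0.501% in late, 0.0978% and 0.119% in dry and 0.118% and 0.165% in rehydrated libraries. The high early values and the upper limit on the other stages were set by the rule, and are a description. The order of the other 4 stages was not set by it.

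**Figure D1:**
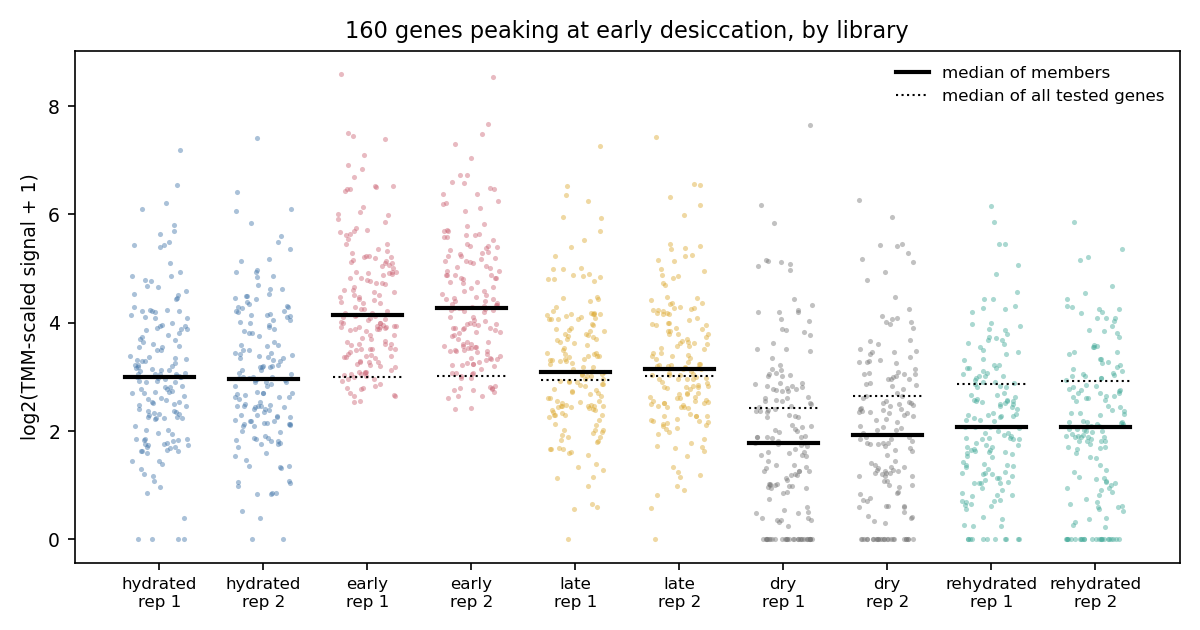
Each point is the deposited signal of 1 of the 160 members in 1 library, as log2(signal + 1) on the vertical axis, with the 10 libraries along the horizontal axis; solid bars are medians of the members and dotted bars medians of all tested genes. The members' median is above that of all tested genes in the early libraries, near it in hydrated and late libraries and below it in dry and rehydrated ones.

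The ratio of the early mean to another stage's mean had a median of 2.53 over hydrated (quartiles 2.12 to 3.53, 159 members with signal there) and 2.31 over late desiccation (quartiles 1.95 to 2.87, 160 members). It was 6.35 over dry (142 members) and 5.41 over rehydrated (151 members). The 2 early libraries differed from each other by a median of 1.14-fold, and at most by 1.90-fold. Early levels were mostly modest: 34 members had an early mean between 5 and 10, 56 between 10 and 20, 48 between 20 and 50, 15 between 50 and 100 and 7 at 100 or more. By the lower early value over the highest other value, 36 members reached 2 and 13 reached 2.5. The members nearest the limit of 1.5 had a lower early signal of 10.6 against a highest other of 7.04, and 13.7 against 9.14. The genes just outside it had 37.4 against 25.0 and 15.8 against 10.6. There were 36 members with a ratio from 1.5 to 1.6 and 61 genes outside with a ratio from 1.4 to 1.5, so the set has no gap at its edge.

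The same rule was also applied to the 5 libraries of a single replicate number, and the genes found were then read in the other 5. Replicate number 1 gave 506 genes, of which 360 (71.1%) had their highest value at early desiccation in the libraries of number 2 as well. Among all 6724 genes with an early signal of at least 5 in replicate 1, that share was 22.8%. The full rule was met again by 204 of the 506 (40.3%), beside 6.68% of the 6724. Chosen on replicate number 2, 407 of 576 genes (70.7%) peaked early in the libraries of number 1, beside 23.9% of 6772 genes, and 204 (35.4%) met the full rule, beside 5.91%. Each of these sets holds 158 of the members, which meet the rule over all 10 libraries, so the shares are a description and no separate support for the peak. The same rule placed at the other stages found 470 genes peaking in hydrated drops, 221 at late desiccation, 190 in dry and 252 in rehydrated drops, so early desiccation had the fewest of the 5 stages.

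The 2 members with the largest ratio show the peak at low read numbers. The first, TRINITY_DN74851_c3_g2, had a signal of 0.969 and 0.795 in hydrated, 5.53 and 5.61 at early and 0.579 and 0.503 at late desiccation, 0.407 and 0 in dry, and 0 in both rehydrated libraries. These signals rest on 5 and 4 counts in hydrated and 33 and 33 at early desiccation. The early libraries stood apart from the rest, which were all near the level of a few reads. Its log2 fold change was 2.58 (SE 0.59) at early desiccation against hydrated, given as a description. Set to a floor of 3 counts over the stage, its 0 counts after rehydration lay at least 1.99-fold below hydrated. The fitted change, without the floor, had edgeR adjusted p = 0.0290. The gene passed the filter on low counts only through its early libraries, so this test exists because of the peak. The 95% counting interval for its ratio of rehydrated to hydrated reached up to 0.765. Floors here are a setting, and counting intervals cover counting error only.

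The second, TRINITY_DN59072_c0_g2, had a signal of 7.47 and 7.29 in hydrated, 42.7 and 43.0 at early and 13.4 and 12.9 at late desiccation, 0 and 0 in dry and 9.70 and 0 in rehydrated libraries. Only 21 and 22 counts lie behind the early signals. Its relative length, itself taken from counts over signal, is 0.0972, beside a median of 0.952 over tested genes. No difference between its other stages passed the threshold, with edgeR adjusted p from 0.0643 to 0.800. It shares its assembly cluster with the member of highest early signal, ranked 42, whose relative length is 0.0608. Reads may be split between sequences of 1 cluster, so the values of both are uncertain for that reason.

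The member ranked 42 had a signal of 144 and 169 in hydrated, 385 and 372 at early desiccation, 152 and 171 at late desiccation, 200 and 76.2 in dry and 69.9 and 40.3 in rehydrated libraries. Its dry libraries differed widely, 1 above and 1 below the hydrated pair, and they rest on 29 and 13 counts. The next highest, ranked 19, had 67.3 and 67.7 in hydrated, 167 and 203 at early, 74.6 and 79.2 at late desiccation, 30.3 and 29.6 in dry and 22.7 and 20.6 in rehydrated libraries. Its pairs did not overlap between hydrated, early, dry and rehydrated stages. It fell below hydrated in dry drops (log2 fold change -1.01, SE 0.24, edgeR adjusted p = 0.00462) and after rehydration (-1.76, SE 0.24, edgeR adjusted p = 0.000112). The member ranked 35 had 73.4 and 66.2 in hydrated, 180 and 179 at early, 90.9 and 93.5 at late desiccation, 70.8 and 42.5 in dry and 32.5 and 17.2 in rehydrated libraries. It did not pass the threshold in dry drops against hydrated (-0.05, SE 0.33) and was lower after rehydration (-1.47, SE 0.34, edgeR adjusted p = 0.00449).

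**Figure D2:**
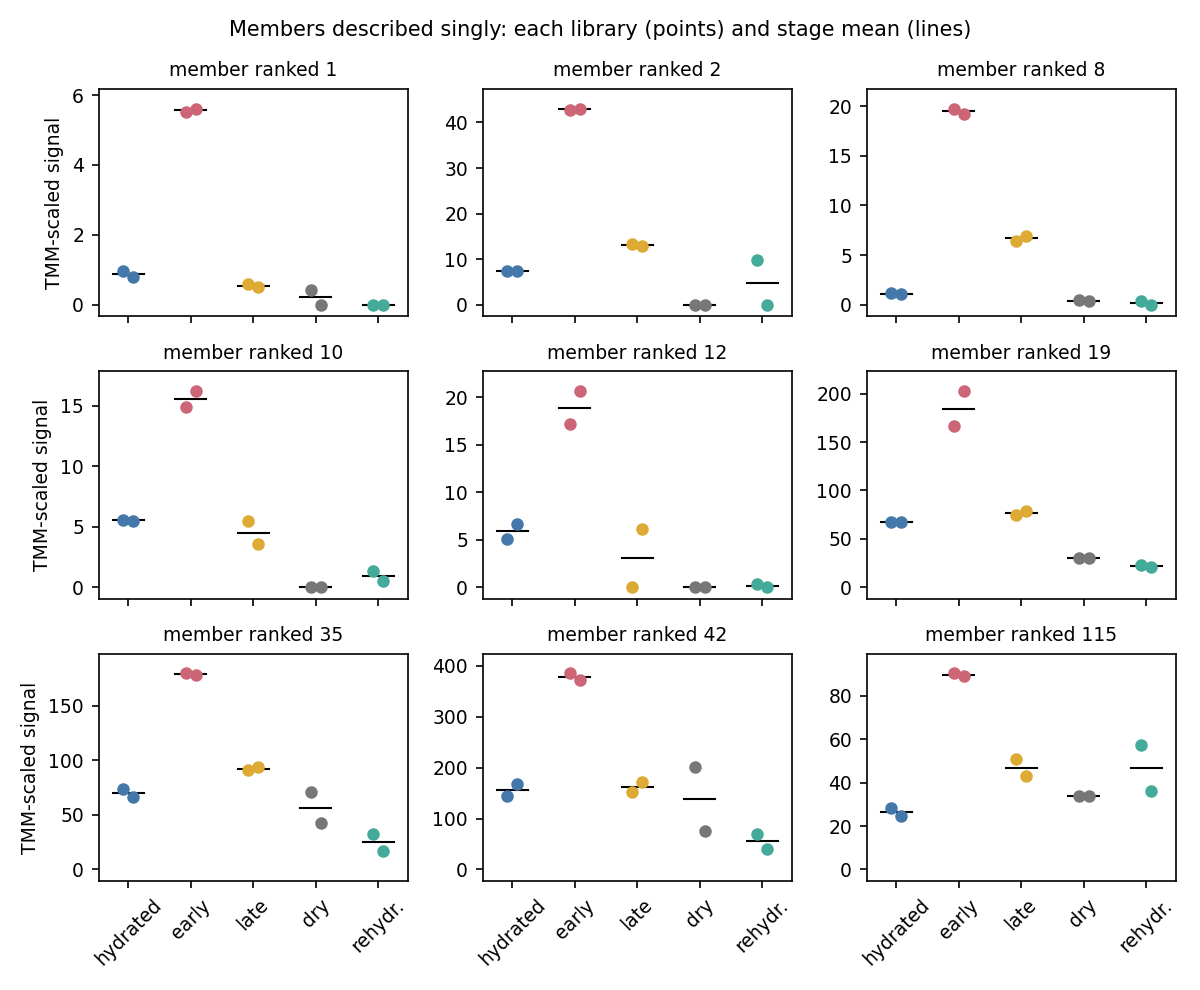
The vertical axis of each panel is the deposited signal of 1 member in each library (points) and its stage mean (lines), for 9 members given by rank. Early values lie above all others in every panel; the member ranked 42 has dry libraries at 200 and 76.2, and the member ranked 12 has late libraries at 0 and 6.12.

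The first test asked whether members had left the hydrated level once the drops had lost 60% of their volume. Most had not been called: 13 of 155 tested members were higher and 1 was lower at late desiccation, 14 in all (9.03%), beside 24.9% of the 10467 tested genes. The higher calls were 8.39% of members beside 11.5% of tested genes, and the lower calls 0.645% beside 13.4%. The median log2 fold change was 0.11 (quartiles -0.19 to 0.56), with a median SE of 0.32, beside 0.04 over all tested genes. Both late libraries lay above both hydrated ones in signal for 62 members (40.0%, beside 36.2% of tested genes) and below them for 31, beside 31.6% of tested genes. The test was edgeR's two-sided quasi-likelihood F test at 0.05, adjusted over all 10467 genes by Benjamini-Hochberg. The count of 13 became smaller without any 1 of the hydrated or late libraries, and so did the share of all tested genes called higher. DESeq2 gave 7, beside 8.79% of tested genes.

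The 3 largest changes at late desiccation were rises in members with few hydrated reads. The member ranked 157 had 5 and 9 counts in hydrated, 94 and 106 at early and 88 and 135 at late desiccation, then 2 and 0 in dry and 0 and 1 in rehydrated libraries. Early and late desiccation were high together, and the remaining stages were near 0 (log2 fold change of late against hydrated 2.82, SE 0.44, edgeR adjusted p = 0.000645). These counts are not scaled for depth. In the fit, late lay below early desiccation (log2 fold change -0.74, SE 0.32), given as a description. The member ranked 8 had a signal of 1.12 and 1.11 in hydrated, 19.8 and 19.2 at early, 6.46 and 6.90 at late desiccation, 0.426 and 0.339 in dry, and 0.333 and 0 in rehydrated libraries (late against hydrated 2.56, SE 0.36, edgeR adjusted p = 0.000264). The member ranked 36 was also called (2.56, SE 0.86, edgeR adjusted p = 0.0463), from 1 and 1 counts in hydrated and 8 and 22 at late desiccation, and it passed the filter on low counts only through its early libraries. The 1 member that fell, ranked 118 and named after its values were seen, had 17.5 and 16.9 in hydrated, 27.5 and 28.6 at early and 8.88 and 7.37 at late desiccation.

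In dry drops the members lay well below the hydrated level. Of 155 tested members 73 fell (47.1%), beside 22.3% of tested genes, and 1 rose (0.645%), beside 22.7%. The median log2 fold change was -1.27 (quartiles -2.18 to -0.51), with a median SE of 0.44, beside -0.28 over all tested genes. With the members at 0 counts in dry held at the floor, the median was -0.97. Both dry libraries lay below both hydrated ones in 125 members (80.6%, beside 46.7% of tested genes) and above them in 3 (1.94%, beside 27.4%). The tested members include 15 that passed the filter on low counts only through their early libraries. Without those, 68 of 140 fell and 1 rose. The rule limits dry levels from above, as it does those of the other stages. That limit removes large rises, so it makes rises rare and can raise the share called lower. The same holds for dry against late and for rehydrated against hydrated. How far a member falls below hydrated is not set by it. The count of 73 became smaller without any 1 of the hydrated, early, late or dry libraries, and so did the share of all tested genes called lower. With libraries scaled by their totals alone the count was 114, beside 39.9% of tested genes. That scaling moved the median of all tested genes to -1.07 and that of members to -2.06, a distance of -0.99 on either scale. Fewer cells and less RNA per cell cannot be told apart in these libraries.

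**Figure D3:**
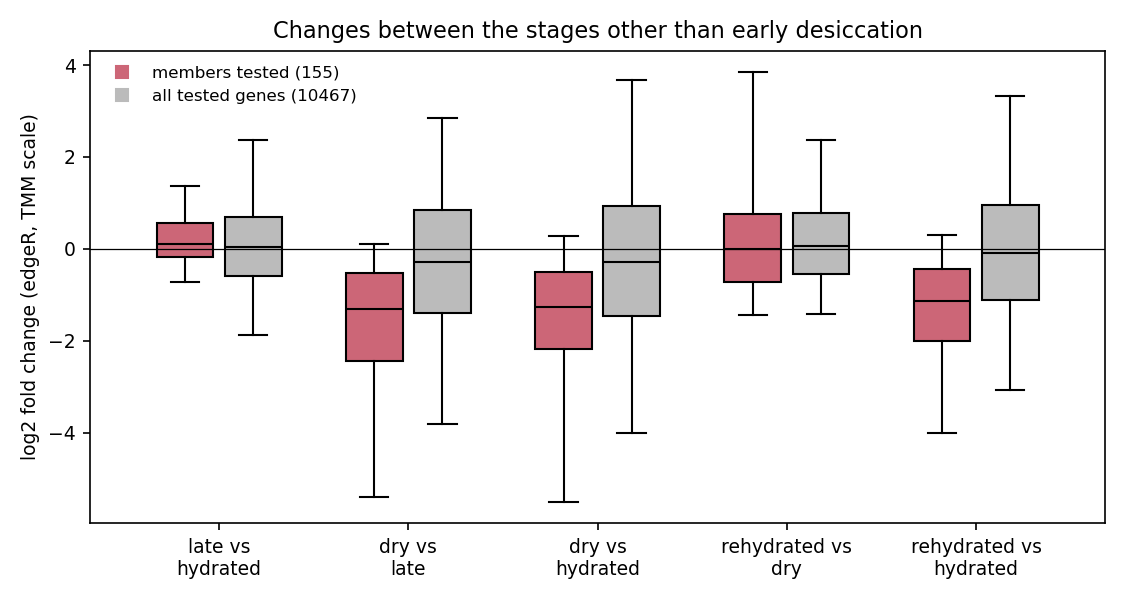
Boxes give the quartiles and median of the log2 fold change (vertical axis, edgeR on the TMM scale) for the 155 tested members and the 10467 tested genes in 5 comparisons, with whiskers at the 5th and 95th percentiles. Members sit near 0 in late against hydrated and in rehydrated against dry, and have medians of -1.31, -1.27 and -1.14 in dry against late, dry against hydrated and rehydrated against hydrated.

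The drop lay between late desiccation and dry. From late desiccation to dry, 79 members fell (51.0%, beside 20.3% of tested genes), with a median of -1.31 over all tested members (-1.18 at the floor), beside -0.29. None rose by edgeR's test, beside 22.4% of tested genes; 0 did so at an unadjusted p below 0.05, and DESeq2 and limma also gave 0. Of the 140 members that pass the filter on low counts without the early libraries, 75 fell from late desiccation to dry. In 90 of the 160 members dry was the lowest of the 4 other stages, and in 63 rehydrated was. The second highest stage was late desiccation for 91 members and hydrated for 61, dry for 1 and rehydrated for 7.

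Both members with the largest fitted fall lacked reads in the dry libraries. TRINITY_DN67353_c0_g5, ranked 12, had 49 and 62 counts in hydrated, 189 and 224 at early, 0 and 157 at late desiccation, 0 and 0 in dry and 2 and 0 in rehydrated libraries. At the floor, that put dry at least 16.6-fold lower than hydrated, and the fitted change, without the floor, had edgeR adjusted p = 0.0340. The 95% counting interval for the ratio of dry to hydrated reached up to 0.0755. The late libraries were split, and the call in dry was lost without either hydrated or either dry library, with edgeR adjusted p from 0.0566 to 0.152. After rehydration the ratio to hydrated was 0.0272, with a 95% counting interval of 0.00326 to 0.101. It shares its cluster with other genes of the table.

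TRINITY_DN75080_c3_g1, ranked 10, had 21 and 20 counts in hydrated, 67 and 68 at early, 35 and 39 at late desiccation, 0 and 0 in dry and 3 and 1 in rehydrated libraries. It was at least 6.12-fold lower in dry at the floor, and its fitted change, without the floor, had edgeR adjusted p = 0.000706. After rehydration it was still lower than in hydrated (log2 fold change -2.72, SE 0.59, edgeR adjusted p = 0.00321). Both dry libraries lacked reads for 14 of the 155 tested members, beside 4.16% of tested genes, and for 18 of all 160 members (11.2%). Several of the 14, such as TRINITY_DN59072_c0_g2, passed the filter on low counts only through their early libraries. Those members were tested because of the peak, so the shares are not alike and no excess is read from them.

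A single member rose in dry drops. Ranked 115, it had a signal of 28.3 and 24.8 in hydrated, 90.4 and 89.3 at early, 50.9 and 43.0 at late desiccation, 33.99 and 33.82 in dry and 57.2 and 36.3 in rehydrated libraries. All later libraries stood above both hydrated ones. Its log2 fold change was 0.81 (SE 0.25, edgeR adjusted p = 0.0223) in dry and 0.79 (SE 0.25, edgeR adjusted p = 0.0231) in rehydrated against hydrated. It was also higher at late desiccation (1.27, SE 0.25, edgeR adjusted p = 0.00258), which made it the only tested member called higher at all 3 stages. The call in dry was lost with either hydrated library or dry replicate 1 left out, and that in rehydrated drops with either hydrated library or rehydrated replicate 1 left out.

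**Figure D4:**
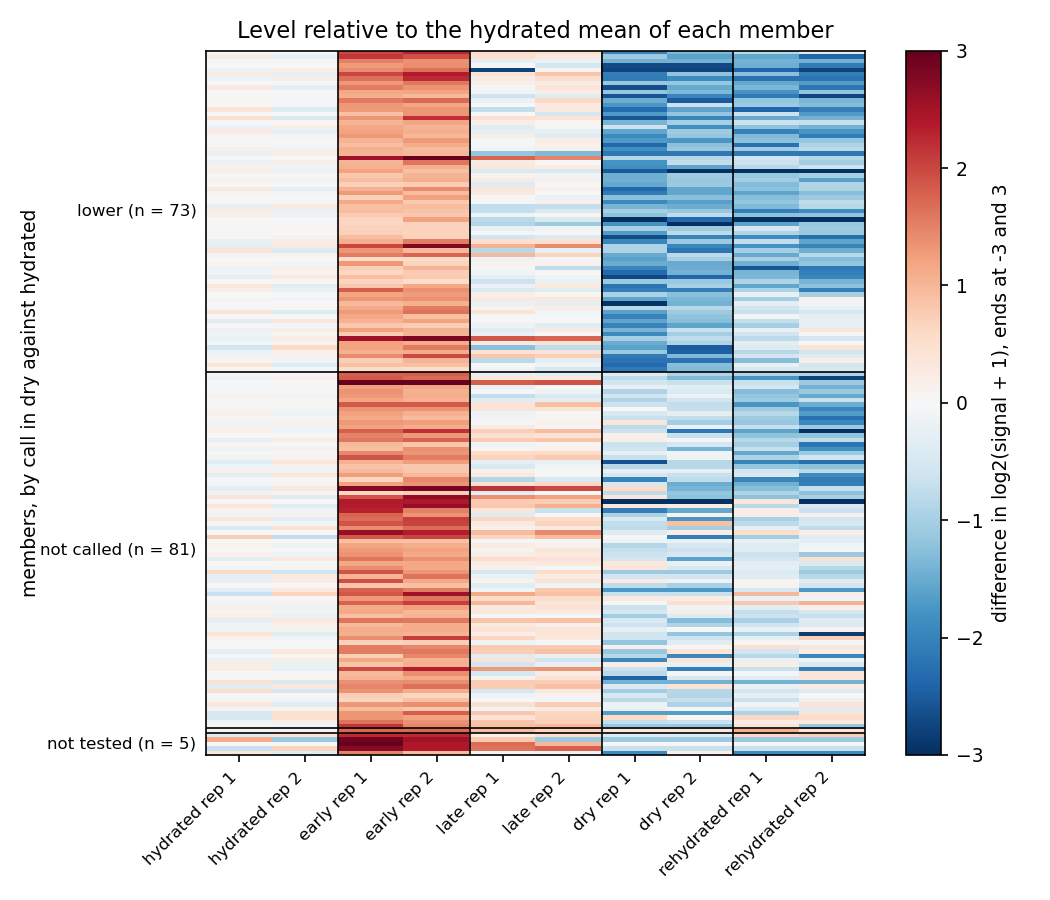
Rows are the 160 members and columns the 10 libraries; colour is the difference in log2(signal + 1) from the member's hydrated mean, ending at -3 and 3. Rows are grouped by the call in dry against hydrated, with 73 lower, 81 not called and 5 not tested, and a single row for the 1 higher member between the last groups. In most rows the late columns are near the hydrated level and the last 4 columns are below it.

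After 1 h of rehydration the members as a list still lay below the hydrated level. Against hydrated, 83 members were lower (53.5%, beside 20.2% of tested genes) and 1 was higher, beside 22.0% of tested genes. The median log2 fold change was -1.14 (quartiles -2.01 to -0.45, median SE 0.40), beside -0.09 over all tested genes. Both rehydrated libraries lay below both hydrated ones in 74.2% of members, beside 36.1% of tested genes, and above them in 7 members (4.52%, beside 32.6%). Of the 140 members that pass the filter on low counts without the early libraries, 79 were lower than hydrated and 1 was higher. Between dry and rehydrated drops 1 member rose (0.645%, beside 2.73%) and 6 fell (3.87%, beside 2.39%), 7 in all beside 5.12% of tested genes, with a median of 0.00. Of the 73 members that fell in dry, 54 (74.0%) were also lower after rehydration, beside 64.8% of the 2330 tested genes that fell in dry. These comparisons share the hydrated libraries.

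The few calls between dry and rehydrated depended on which libraries were in the fit, including libraries of other stages. Shares over all tested genes mostly moved with them. Without the 2 early libraries, 1 member was lower, beside 0.869% of tested genes, where the main fit called 2.39% lower. The 6 falls became 1 without either hydrated, early or late library or rehydrated replicate 2, 0 without dry replicate 1 and 2 without dry replicate 2, and stayed at 6 without rehydrated replicate 1. With library totals alone 8 members were higher, beside 7.36% of tested genes, and 0 lower, beside 0.191%. That scaling moves the tested genes' median on the log2 scale from 0.07 to 0.60 and the members' from 0.00 to 0.50. The member ranked 75 had a signal of 42.5 and 40.1 in hydrated, 114 and 106 at early, 60.8 and 62.8 at late desiccation, 34.6 and 37.9 in dry and 13.6 and 18.9 in rehydrated libraries (rehydrated against dry -1.43, SE 0.25, edgeR adjusted p = 0.0197). Those ranked 7 and 35 fell by 1.55 (SE 0.40) and 1.42 (SE 0.36) on the log2 scale, with edgeR adjusted p of 0.0479 and 0.0441. The member that rose, ranked 40 and named after its values were seen, had 22.1 and 21.5 in hydrated, 4.70 and 8.88 in dry and 20.6 and 18.1 in rehydrated libraries, and its pairs did not overlap between dry and rehydrated.

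**Figure D5:**
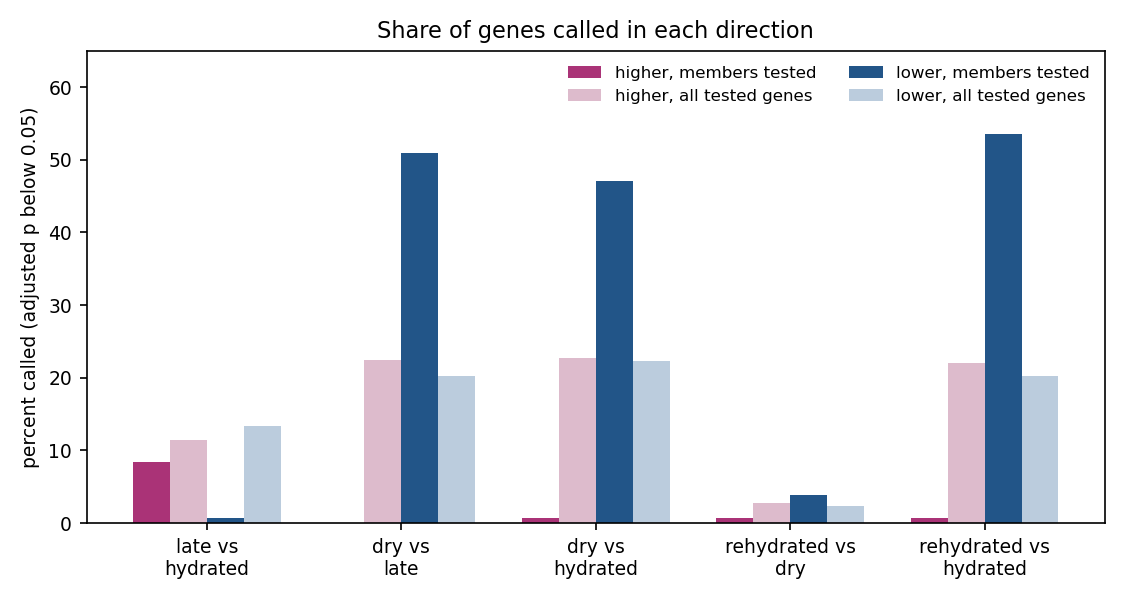
Bars give the percent of the 155 tested members and of the 10467 tested genes called higher or lower at an edgeR adjusted p below 0.05 (vertical axis, from 0) in 5 comparisons. Members called lower reach 51.0%, 47.1% and 53.5% in dry against late, dry against hydrated and rehydrated against hydrated, where 20.2% to 22.3% of tested genes were called lower.

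Taking late, dry and rehydrated against hydrated in turn, the commonest course was no call at late desiccation followed by a lower level in both dry and rehydrated drops, in 51 members (32.9%, beside 6.81% of tested genes). No call at any of the 3 stages was found in 47 (30.3%, beside 38.9%). A further 25 (16.1%, beside 4.56%) were called lower after rehydration and at neither other stage, and 18 (11.6%, beside 6.47%) lower in dry and at neither other stage. In all, 102 members (65.8%) were lower in dry, rehydrated or both, beside 28.1% of tested genes. These counts are of the 155 tested members, 15 of which passed the filter on low counts only through their early libraries.

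Among genes peaking at late desiccation, found by the same rule, rises and falls in dry drops were near even in number; the difference between the sets was not tested. Their dry and rehydrated levels are limited by the rule in the same way. In dry against hydrated, 22 of 194 tested were higher (11.3%, beside 22.7% of all tested genes) and 21 lower (10.8%, beside 22.3%). Their median log2 fold change was 0.00, and the members had 1 higher and 73 lower of 155. After rehydration 21 of the late set were higher (10.8%, beside 22.0%) and 19 lower (9.79%, beside 20.2%), with a median of -0.02. The 2 sets also differ in other ways. The median hydrated signal of the late set was 5.54, beside 6.88 for tested members. Of its 221 genes 43.4% shared a cluster, beside 28.7% of members, and 47.1% had counts off a whole number, beside 26.2%. The lower quartile of relative length was 0.319, beside 0.651. Whether any of these bears on the difference was not tested.

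In features that the rule did not use, members were close to the rest of the table. The median relative length was 1.02 (quartiles 0.651 to 1.52, 156 members with enough counts), beside 0.952 over tested genes. A cluster of the assembly was shared with another gene of the table by 46 members (28.7%), beside 29.0% of tested genes. Estimated counts more than 0.005 from a whole number, as arise when reads are shared between sequences, occurred in 42 members (26.2%), beside 28.3%. The 160 members came from 157 clusters, of which 3 held 2 members each. The 50 other genes of those clusters included 32 that were tested. Of these, 5 (15.6%) were higher and 2 (6.25%) lower at early desiccation against hydrated, beside 5.05% and 6.16% of all tested genes, with a median log2 fold change of 0.70 beside 0.00. Reads split within a cluster could enter these values, which was not tested.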

How the data were processed

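Reads were processed with CASAVA 1.4, Trimmomatic 0.35, Bowtie2 2.2, RSEM 1.2.28 and DESeq2, per the submitters' processing notes, which give no order; ribosomal RNA was removed with kit oligos and 105 custom ones, per the labels' protocols. One of the deposited tables gives unnormalised expected counts for each assembled gene. The other gives a signal that the authors scaled by TMM, per the table's name, taken to be per length from its values. No build or annotation is named, nor how genes were chosen.

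The rule for members was applied to the deposited signal. Expected counts were rounded, filtered with filterByExpr (minimum count 10, minimum total 15), scaled with TMM and fitted with edgeR 4.0.16 in R 4.3.3 (glmQLFit, 5 stages, all 10 libraries, no covariate). This left 10467 genes. Of the 160 members 155 passed, 15 of them only through the early libraries. Those 15 had 1 higher call in late against hydrated, and 5 lower calls in dry against hydrated, 4 in dry against late and 4 in rehydrated against hydrated. The early libraries stand on neither side of these comparisons but enter the filter and the shared spread. Early desiccation against other stages chose the members, so no test of it is given for them; its fit is used for other genes of their clusters. SE is the fold change (log2) divided by the root of F. Relative length is the expected count over the signal, divided by its median in the library, and a cluster is the identifier without its last field. The fits were tested on simulated data.

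Members given singly are the 2 of largest ratio and the 2 largest falls in dry against hydrated (adjusted p below 0.05, at least 5 CPM in hydrated, no overlap), by identifier. By rank, they are the 3 of highest early signal, the rises in dry and the 3 largest changes in late against hydrated and in rehydrated against dry. The members, lists and tests were chosen with earlier results of these data known. Alternatives were size factors, library totals, filters, DESeq2 1.42.0, limma 3.58.1 on log2(signal + 1) or log2(signal + 0.1), a replicate block, fewer libraries and other limits in the rule.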

Additional observations from a re-analysis of the deposited data

How the results depend on the processing

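The direction of the members' lean in dry and rehydrated against hydrated held in every setting tried. Each stage has only 2 libraries, and how many members were called moved with the setting. With library totals alone, 22 members were higher and 0 lower at late desiccation, 147 fell from late to dry, 114 were lower and 0 higher in dry against hydrated, 8 were higher and 0 lower in rehydrated against dry, and 0 were higher in rehydrated against hydrated. Of all tested genes, that scaling called 16.2% higher at late desiccation, 57.2% lower from late to dry, and 39.9% lower in dry against hydrated. It called 5.81% lower at late desiccation, and 13.1% higher in dry and 16.4% higher in rehydrated drops against hydrated. From dry to rehydrated it called 7.36% higher and 0.191% lower. Percentages in brackets below are the shares of all tested genes called the same way. DESeq2 gave 7 higher (8.79%) and 0 lower (10%) at late desiccation. In rehydrated against dry it gave 11 lower of the 108 members with an adjusted p (8.78%). Median-of-ratios size factors gave 0 higher in rehydrated against dry (2.01%). With limma and a pseudocount of 1, 0 members were higher in dry against hydrated (11.5%) and 1 was lower in rehydrated against dry (0.461%). With a pseudocount of 0.1, 4 were higher and 0 lower at late desiccation, 0 higher in dry and 52 lower in rehydrated against hydrated, and 5 higher and 3 lower in rehydrated against dry. With a pseudocount of 1 and a mean of at least 1, 5 were higher (6.55%) and 0 lower (6.74%) at late desiccation. In that setting 0 were higher in dry (16.3%) and 2 in rehydrated drops (17.4%) against hydrated. Rehydrated against dry then had 4 higher (3.78%) and 1 lower (1.02%). Fits of only the compared stages gave 22 higher (14.8%) and 3 lower (17.4%) at late desiccation. They gave 0 of either in rehydrated against dry (0.00955% each way) and 0 higher in rehydrated against hydrated (18.9%). Without the early libraries, 70 were lower in dry against late (18.4%), 61 in dry (20.4%) and 71 in rehydrated against hydrated (18.5%). At late desiccation 0 were lower (11.7%), and rehydrated against dry had 0 higher (0.946%) and 1 lower (0.869%). Why these counts differ was not tested.

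Leaving out each library in turn gave 6 to 19 higher and 0 to 3 lower at late desiccation, 0 to 1 higher and 55 to 88 lower in dry against late, and 0 to 1 higher and 46 to 75 lower in dry against hydrated. It gave 0 to 1 higher and 0 to 6 lower in rehydrated against dry, and 0 to 1 higher and 56 to 84 lower in rehydrated against hydrated. A stage left with 1 library is assumed to vary like the others. Shares called over all tested genes also moved when a library was left out, so these ranges are not particular to members. Deviations of same-numbered libraries had correlations of 0.00 to 0.14 between stages. Counting noise also lowers such correlations, so this check cannot exclude that the numbers pair the libraries. With the replicate number as a block, 2 members were lower at late desiccation (14% of tested genes) and 2 higher in rehydrated against dry (3.31%). Against hydrated, 74 were lower in dry (22.1%) and 81 in rehydrated drops (20%).

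The number of members followed the rule's limits. A ratio of 2 left 36 genes, and an early mean of 10 left 126. CPM from the expected counts gave 132, of which 117 were among the 160. The libraries of replicate number 1 alone gave 506 and those of number 2 alone 576. Without 1 library the rule found 162 to 391 genes, 391 without early replicate 1 and 279 without early replicate 2. TRINITY_DN59072_c0_g2 passed the threshold in dry against hydrated with limma only, with adjusted p from 0.0184 to 0.0372. Depth limits most the members with few reads, 5 of which were not tested.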
